A study of Mus musculus with 12 samples.

Results

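The cytotoxic effector genes of natural killer (NK) and T cells followed here were Gzma, Gzmb, Gzmk, Prf1, Nkg7, Ccl5, Xcl1, Tbx21, Eomes and Ifng, read in the spleen of mice on 3 diets. Of these 10 genes, 9 had a probe among the 19057 genes with a named probe, and Gzma, which had none in the annotation used, was not analysed here. Each gene was read by its probe with the highest mean over the 12 mice. The mice were male C57BL/6J, a wild-type inbred strain, bought at 6 weeks of age, acclimatized for 3 weeks and then fed for 8 weeks. Each diet had 4 mice and each mouse 1 Illumina MouseWG-6 v2.0 array. Of the control chow, 5 g in 100 g was fat, 2.5 g corn oil and 2.5 g coconut oil. HFD-CO was a high fat diet with 15 g fat per 100 g, made of 10 g coconut oil and 5 g corn oil. HFD-ED was a high fat diet with the same 15 g fat and 10 g coconut oil, 3 g corn oil and 2 g of an oil enriched in eicosapentaenoic and docosahexaenoic acid (EPA and DHA), the long n-3 fatty acids of fish oil. Both high fat diets also held 1 g cholesterol per 100 g, which the control diet did not. The 4 mice of a diet had been selected out of a larger number for their weight and blood lipids. The sample titles give spleen as the tissue whereas a protocol text names skeletal muscle, and the lymphoid markers were bright, with Cd79b, a B-cell receptor chain, between 12.32 and 12.99 and Cd3e, a T-cell receptor chain, between 9.51 and 10.62 on the log2 scale.

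Cytotoxic lymphocytes kill infected or transformed cells by releasing granules onto them. Perforin (Prf1) opens the target membrane, granzymes (Gzma, Gzmb, Gzmk) are the serine proteases that enter and cleave substrates inside it, and Nkg7 is a membrane protein of the granule. The same cells secrete the chemokines Ccl5 (RANTES) and Xcl1 (lymphotactin) and interferon-gamma (Ifng), and the T-box factors T-bet (Tbx21) and Eomes direct the programme. In a resting spleen these transcripts come mainly from NK cells and from memory and effector T cells, which are minorities beside the B cells. Fewer such cells and less RNA per cell cannot be told apart in bulk RNA.

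The T-box factors bind short DNA motifs, and the upstream sequence of 3 members is shown because Xcl1 and Ifng were lower in the HFD-ED mice and Nkg7 holds a match to each of the 4 motifs searched. The lines give the 250 bases before the annotated start, 5′ to 3′ on the strand of the gene, from RefSeq (build GRCm38.p6). Capitals mark a T-box motif (GGTGTGA) or a Runx motif (TGTGGT) on either strand, where TCACACC and ACCACA are the reverse forms.
Xcl1, chr1:164935523-164935772, minus strand: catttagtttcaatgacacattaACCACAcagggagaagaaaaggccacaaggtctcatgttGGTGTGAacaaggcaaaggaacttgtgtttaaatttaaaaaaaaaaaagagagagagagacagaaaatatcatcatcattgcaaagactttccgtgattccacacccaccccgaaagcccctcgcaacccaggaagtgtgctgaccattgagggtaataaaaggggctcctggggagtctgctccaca
Nkg7, chr7:43436888-43437137, plus strand: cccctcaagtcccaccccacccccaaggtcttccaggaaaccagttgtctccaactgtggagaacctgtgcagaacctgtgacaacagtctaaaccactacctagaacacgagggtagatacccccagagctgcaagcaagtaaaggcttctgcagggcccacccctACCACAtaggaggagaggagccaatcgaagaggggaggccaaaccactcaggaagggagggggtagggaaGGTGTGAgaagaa
Ifng, chr10:118440796-118441045, plus strand: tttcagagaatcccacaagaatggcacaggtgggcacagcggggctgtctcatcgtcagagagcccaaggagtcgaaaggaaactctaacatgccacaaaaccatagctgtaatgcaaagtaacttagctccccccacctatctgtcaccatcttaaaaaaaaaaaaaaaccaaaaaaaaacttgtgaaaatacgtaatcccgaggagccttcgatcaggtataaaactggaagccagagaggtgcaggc
Of the 10 members 9 had an entry, all except Ccl5. The T-box motif stood in 3 of the 9, Xcl1, Nkg7 and Gzmk, against 3.33% of all 32851 promoter windows of this length. Counted from the start, it began at base -188 in Xcl1 and at base -13 in Nkg7. The Runx motif stood in 5 of the 9, Xcl1, Nkg7, Prf1, Gzmb and Gzma, against 14.0% of all windows. The GAS motif (TTCNNNGAA, bound by STAT factors) stood in 2 of the 9, Nkg7 and Ifng, against 7.02%, and the Ets motif (AGGAAG) in 4 of the 9, Xcl1, Nkg7, Prf1 and Tbx21, against 29.5%. In Ifng the GAS match began at base -249, and the window held none of the other 3. The motifs did not overlap each other, and a match is only a match of letters.

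The deposited values are log2 signals whose lower end is compressed, and 75.2% of the 45281 probes had a mean under 7.5. Probes of 1287 olfactory receptor transcripts, which spleen is not known to use, served as the level of unexpressed genes, with a median of 7.07 and a 99th percentile of 7.17. Against that level, 8 of the 9 members had a higher mean over the 12 mice and Gzmb did not (7.08). For Gzmk the control mice alone, at a mean of 7.16, did not exceed the 99th percentile. Gzmk (7.21), Ifng (7.24), Tbx21 (7.43), Eomes (7.55) and Xcl1 (7.67) lay just above it, so that their differences are compressed, whereas Nkg7 (9.70), Prf1 (11.38) and Ccl5 (11.65) were bright. These means belong to different probes and do not order the genes by abundance.

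Certain spleens stood apart before any member was considered. HFD-ED replicates 2, 3 and 4 had a mean of 30 erythroid markers of 9.94, 10.55 and 9.81 against 8.25 to 9.28 in the control mice, and HFD-ED replicate 1 lay among the others at 8.39. Alas2, the first enzyme of haem synthesis in red cell precursors, reached 12.91 in replicates 2 and 3. In HFD-ED replicate 3 the mean of 20 neutrophil markers was 10.17 against at most 9.09 in every other mouse, and that of 19 T-cell markers was 8.54 against at least 8.86. HFD-CO replicate 4 carried pancreatic transcripts, with Cela2a, a pancreatic elastase, at 14.59 and Clps, colipase, at 13.64. HFD-CO replicate 1 had them too, at 11.42 and 10.03, and a mean of 17 pancreatic acinar markers of 8.81 against 7.17 to 7.68 in the mice other than these. No covariate for batch was given by the labels. Between mice on 1 diet, r across all probes was 0.971 to 0.995.

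HFD-ED was compared with control to ask what the EPA and DHA diet did relative to low fat feeding. These diets also differed in total fat, coconut oil and cholesterol, which cannot be told apart from EPA and DHA here. Ccl5, Xcl1 and Ifng, all secreted products, were lower in the HFD-ED mice at an unadjusted p under 0.05 in limma. The granule genes and T-box factors among the members did not pass this line, which Nkg7 crossed in some alternatives. Secreted and granule genes were not tested against each other. Prf1 (-0.25, SE 0.23) and Nkg7 (-0.17, SE 0.10) differed by more than Ifng (-0.088). Gzmb lay at the level of unexpressed genes, and Gzmk, Tbx21 and Eomes, like Ifng and Xcl1, just above it. None of the 9 members passed an adjusted p of 0.05 in limma, where 0 of 45281 probes did (0.0%). At an unadjusted p under 0.05, 3 of the 9 members were lower and 0 higher. Over all 19057 genes 7.55% were lower and 5.69% higher by the same rule. Negative differences were found in 7 of the 9 members against 54.1% of all genes, and the median difference was -0.088 log2 units for the members and -0.0036 for all genes. Centring the arrays on the T-cell or the NK cell markers adds 0.17 or 0.13 to every probe. The median of the members then was 0.078 or 0.043, and that of all probes 0.164 or 0.129. The change of sign thus follows from the scaling. The study named Ccl5 and Xcl1 from these same samples, so that their part in the count is not independent.

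Ccl5, a chemokine that draws T cells, monocytes and eosinophils, stood at 12.21, 11.91, 11.69 and 11.71 in control replicates 1 to 4. It was 11.49, 11.84, 11.69 and 11.67 in the HFD-CO mice and 11.56, 11.54, 11.01 and 11.51 in the HFD-ED mice. Every HFD-ED mouse lay below every control mouse, and the HFD-CO mice lay between and overlapped both. The difference from control was -0.48 log2 units (SE 0.14, adjusted p = 0.342), which is 1.40-fold, and the exact two-sided permutation test gave p = 0.0286, the smallest that 4 mice against 4 allow. The levels were 11.40 ± 0.26 on HFD-ED and 11.88 ± 0.24 on control (SD, n = 4). Without HFD-ED replicate 3, the lowest mouse, the difference was -0.35 (adjusted p = 0.534). With the erythroid mean of each mouse as a covariate it was -0.28 (adjusted p = 0.939), a value smaller by over 1.5 times and past the unadjusted threshold no longer. HFD-ED replicate 1, whose erythroid mean was within the control range, had a Ccl5 level below that of every control mouse. HFD-CO replicates 1, 3 and 4 were below every control mouse too, replicate 1 at 11.49 with an erythroid mean of 8.64. The part of the erythroid cells in the Ccl5 level was not tested.

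Xcl1 encodes lymphotactin, which attracts cross-presenting dendritic cells through Xcr1. The control mice had 7.63, 7.72, 7.87 and 7.78, the HFD-CO mice 7.62, 7.80, 7.80 and 7.74, and the HFD-ED mice 7.48, 7.69, 7.48 and 7.43. In HFD-ED, replicates 1, 3 and 4 were below every mouse of the other diets and replicate 2 was among them. The difference from control was -0.23 (SE 0.065, adjusted p = 0.317) and the exact permutation p was 0.0571. With the erythroid mean as a covariate it was -0.27 (adjusted p = 0.858), and leaving out each mouse in turn gave -0.29 to -0.19.

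Ifng, which activates macrophages and raises antigen presentation, was at 7.28, 7.27, 7.27 and 7.33 in the control mice, close to the level of unexpressed genes. It was 7.20, 7.29, 7.28 and 7.21 in the HFD-CO mice and 7.20, 7.19, 7.14 and 7.25 in the HFD-ED mice. All 4 HFD-ED mice were below all 4 control mice, with a difference of -0.088 (SE 0.028, adjusted p = 0.348, exact permutation p = 0.0286). A dimmer probe of the gene gave -0.024 (adjusted p = 0.698), and the 2 probes correlated over the 12 mice with r = 0.77 (permutation p = 0.00325, adjusted over 3 such pairs 0.00975) and rho = 0.74 (permutation p = 0.00767, adjusted 0.0230). Without the 2 mice farthest from the median r was 0.61. When arrays were centred on the T-cell or the NK cell markers, which adds 0.17 or 0.13 to every probe, the difference of Ifng turned to 0.078 or 0.043, that of Xcl1 was -0.065 or -0.10 and passed the unadjusted threshold no longer, and that of Ccl5 was -0.31 or -0.35 and still passed it (limma adjusted p = 0.183 or adjusted p = 0.0206, the latter among 35053 probes called). Members without overlap between HFD-ED and control were thus Ccl5 and Ifng, both lower, against 3.49% of all genes without overlap and lower and 1.99% without overlap and higher.

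**Figure D1:**
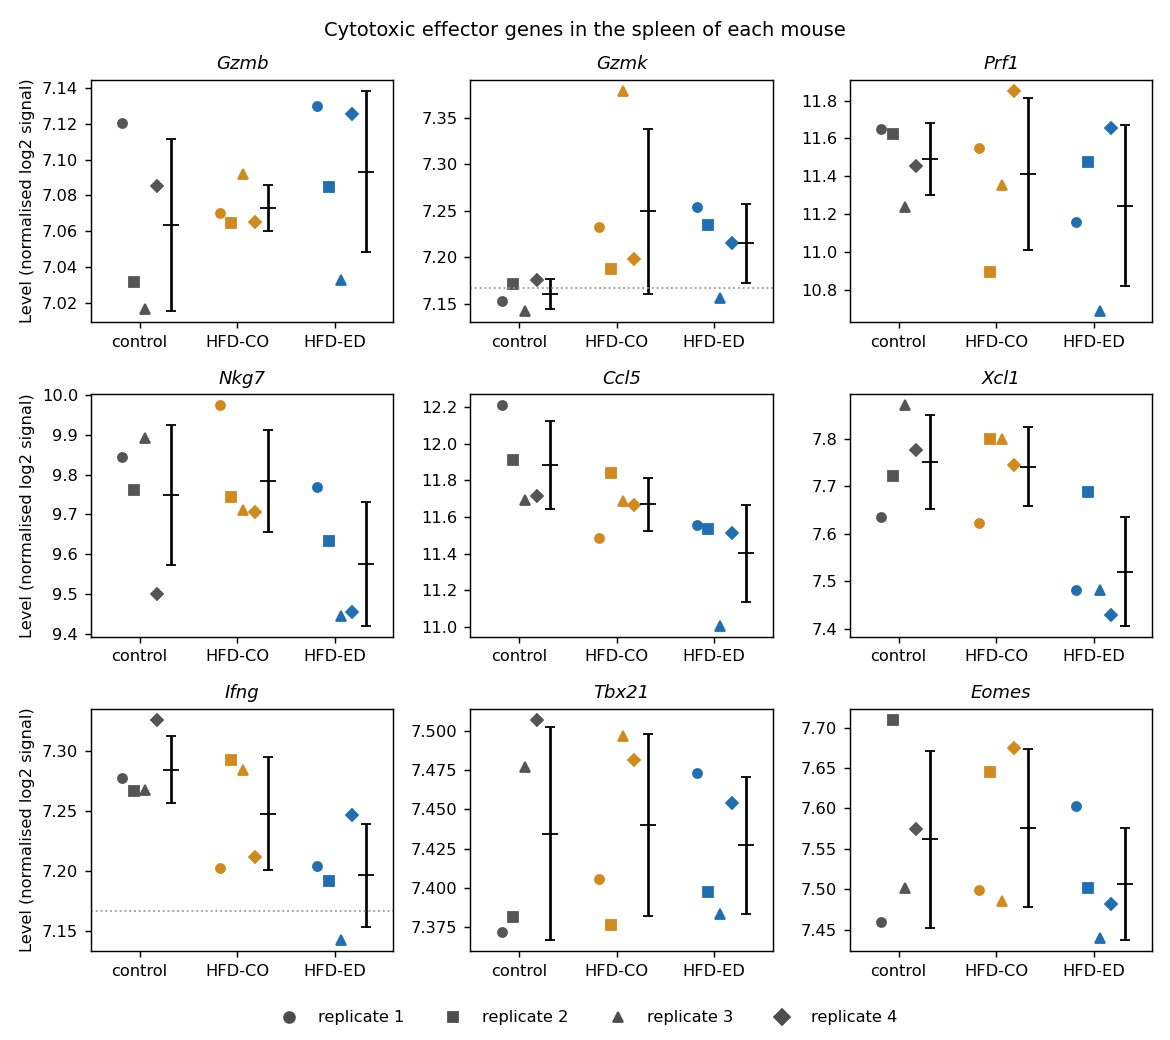
Level of each measured member (normalised log2 signal, vertical axes scaled per gene) in every mouse by diet, with marker shapes for the replicate and a bar for the mean ± SD of 4 mice; the dotted line is the 99th percentile of olfactory receptor probes (7.17). All HFD-ED mice lie below all control mice for Ccl5 and Ifng, and 3 of 4 do for Xcl1.

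The granule genes among the members showed no such separation. Nkg7, needed for the exocytosis of cytotoxic granules, was 9.84, 9.76, 9.89 and 9.50 in the control mice, 9.97, 9.74, 9.71 and 9.71 on HFD-CO and 9.77, 9.63, 9.45 and 9.46 on HFD-ED. The HFD-ED values were low in replicates 3 and 4 but overlapped the control range, with a difference of -0.17 (SE 0.10, adjusted p = 0.605). Nkg7 passed the unadjusted threshold without HFD-ED replicate 1 (-0.24, adjusted p = 0.337), without control replicate 4 (-0.26, adjusted p = 0.374) and with the replicate number as a block (-0.17, adjusted p = 0.398). Gzmk, a granzyme with trypsin-like specificity, was 7.14 to 7.18 on control, 7.19 to 7.38 on HFD-CO and 7.16 to 7.25 on HFD-ED, 0.055 above control on HFD-ED (SE 0.038, adjusted p = 0.692). Gzmb, the granzyme that cleaves caspases, was at 7.02 to 7.13 in all 12 mice, inside the range of the olfactory receptor probes, and no difference was detectable at that level (0.030, SE 0.027, adjusted p = 0.778).

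Prf1 was read by 2 probes that did not vary together. The brighter one, used here by the rule, was 11.65, 11.62, 11.24 and 11.45 in the control mice, 11.55, 10.89, 11.36 and 11.85 on HFD-CO and 11.16, 11.48, 10.69 and 11.66 on HFD-ED. Mice of 1 diet differed by up to 0.97 log2 units, and the diets overlapped. The difference of HFD-ED from control was -0.25 (SE 0.23, adjusted p = 0.789), and it was -0.060 without HFD-ED replicate 3. The dimmer probe lay between 7.27 and 7.54 with a difference of -0.054 (SE 0.042, adjusted p = 0.726). Over the 12 mice the probes correlated with r = -0.0082 (permutation p = 0.980) and rho = -0.084 (permutation p = 0.799), and without the 2 mice farthest from the median r was -0.49. Values of Prf1 in the counts and plots are those of the brighter probe.

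The factors that direct the programme differed little in measured level. Tbx21 was 7.43 ± 0.068 on control, 7.44 ± 0.058 on HFD-CO and 7.43 ± 0.043 on HFD-ED (SD, n = 4), with a difference of HFD-ED from control of -0.0074 (SE 0.038, adjusted p = 0.975). Eomes was 7.46 to 7.71 on control, 7.49 to 7.67 on HFD-CO and 7.44 to 7.60 on HFD-ED, with a difference of -0.055 (SE 0.061, adjusted p = 0.835; -0.0059 without control replicate 2) on the probe used and -0.057 (adjusted p = 0.613) on a dimmer one. The 2 probes of Eomes correlated with r = 0.54 (permutation p = 0.0717, adjusted 0.108) and rho = 0.56 (permutation p = 0.0631). Both factors lay near the level of unexpressed genes, where the scale is compressed, so that a change in them would be hard to detect.

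HFD-CO was compared with control to ask what this high fat diet as a whole did. Per 100 g it held 10 g coconut oil against 2.5 g, 5 g corn oil against 2.5 g, and 1 g cholesterol that control lacked. The parts of these cannot be told apart. No member was lower at an unadjusted p under 0.05, against 2.88% of all genes, and 1 was higher, Gzmk, against 2.12%. Gzmk was 7.15, 7.17, 7.14 and 7.18 in the control mice and 7.23, 7.19, 7.38 and 7.20 in the HFD-CO mice, which did not overlap. The control mean (7.16) lay below the 99th percentile of the olfactory receptor probes (7.17). Expression of Gzmk above that level was thus not shown for the control mice. The difference was 0.089 (SE 0.038, adjusted p = 0.99996), and the share of all genes without overlap was 1.46% higher and 1.85% lower. Without HFD-CO replicate 3, the highest mouse, it was 0.046 (adjusted p = 0.974), and leaving out any 1 of the 4 control mice, HFD-CO replicate 1 or HFD-ED replicate 2 or 4 also moved p above the threshold (0.0512 to 0.0858). Ccl5 differed by -0.21 (SE 0.14, adjusted p = 0.99996), from -0.28 without control replicate 3 to -0.10 without control replicate 1, and Xcl1 by -0.0093 (adjusted p = 0.99996). Differences were negative in 4 of the 9 members against 52.2% of all genes, and no probe passed the adjusted threshold in limma (0.0%).

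HFD-ED was compared with HFD-CO to ask what the oil enriched in EPA and DHA did within high fat feeding, since both held equal fat, coconut oil and cholesterol. That oil stood in place of 2 g of the corn oil, and its presence and the smaller amount of corn oil cannot be told apart. Xcl1 was lower on HFD-ED by 0.22 log2 units (difference -0.22, SE 0.065, adjusted p = 0.436, exact permutation p = 0.0571), with 3 of 4 HFD-ED mice below every HFD-CO mouse. It was the 1 member of 9 that was lower at an unadjusted p under 0.05, against 5.82% of all genes, and 0 were higher, against 6.07%. Nkg7 (-0.21, SE 0.10, adjusted p = 0.569), Ccl5 (-0.27, SE 0.14, adjusted p = 0.618) and Ifng (-0.052, SE 0.028, adjusted p = 0.617) did not pass. Without HFD-ED replicate 3 the difference of Ccl5 was -0.14 (adjusted p = 0.847) and that of Ifng -0.034 (adjusted p = 0.835). Nkg7 passed the unadjusted threshold without HFD-ED replicate 1 (-0.27, adjusted p = 0.286) or without control replicate 4 (adjusted p = 0.530), and Ifng without HFD-CO replicate 1 (adjusted p = 0.616) or HFD-ED replicate 4 (adjusted p = 0.585). Negative differences were found in 8 of the 9 members, Gzmb excepted, against 53.0% of all genes, although for Prf1 the dimmer probe gave 0.030 and the brighter one -0.17, or 0.018 without HFD-ED replicate 3, and the median was -0.070. No member was without overlap, against 2.61% of all genes lower and 1.93% higher, and in limma 1 probe of 45281 (0.00221%), which is no member, passed the adjusted threshold. The comparisons share mice, so their values are set side by side only.

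**Figure D2:**
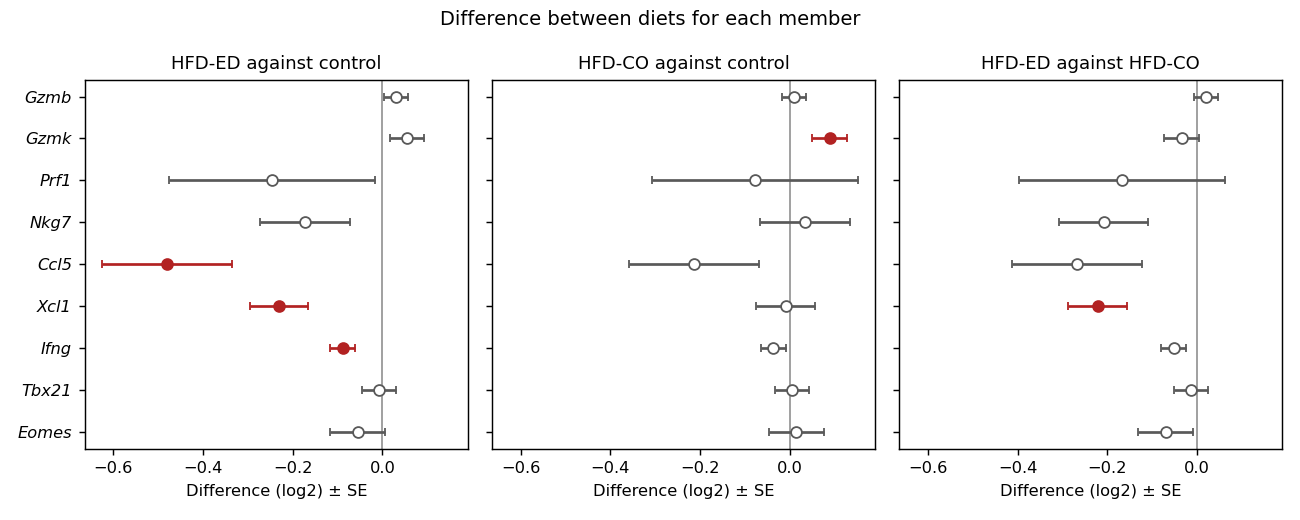
Difference in log2 level between diets (points) with the standard error of the limma fit (bars) for each member in the 3 comparisons; filled red points have an unadjusted p under 0.05. For HFD-ED against control these are Ccl5 (-0.48), Xcl1 (-0.23) and Ifng (-0.088).

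The member values were laid out mouse by mouse beside the markers of the cells in a spleen. Of 23 NK cell markers, 9 were below control in the HFD-ED mice at an unadjusted p under 0.05 and 0 higher (median -0.064), against 7.55% and 5.69% of all genes, and none passed the adjusted threshold. In the HFD-CO mice 3 of the 23 were below control, against 2.88%. Their mean was 7.497 to 7.567 in the HFD-ED mice, 7.63 to 7.72 in the control mice and 7.59 to 7.69 in the HFD-CO mice. The HFD-ED mice overlapped neither other diet, while control and HFD-CO overlapped each other. Klra3 (-0.34, SE 0.040) and Klre1 (-0.29, SE 0.034), receptors of NK cells, had the same adjusted p of 0.0710 against control. Klra4 (-0.45, adjusted p = 0.265) and Slamf7 (-0.36, adjusted p = 0.247) followed. On HFD-CO, Klre1 was below control without overlap too (-0.15, adjusted p = 0.99996), and Klra3 (-0.11), Klra4 (-0.18) and Slamf7 (0.036) overlapped control. Of the defining markers, Ncr1 was at the level of unexpressed genes in every mouse (7.03 to 7.11). Klrb1c, the NK1.1 gene, was 7.27 to 7.37 on HFD-ED, 7.30 to 7.52 on control and 7.22 to 7.32 on HFD-CO. It overlapped between HFD-ED and both other diets, and its HFD-ED mean (7.31) was above that of HFD-CO (7.27). T-cell markers were lower in 4 of 19, with a mean of 8.54 to 9.08 on HFD-ED and 8.98 to 9.06 on control, and Cd8b1, the CD8 beta chain, was 11.05 to 11.76 on HFD-ED and 11.75 to 11.80 on control (-0.32, adjusted p = 0.464), while the probe of Cd8a was at the unexpressed level (7.04 to 7.14). Cd3d was 10.03 to 10.56 on HFD-ED and 10.46 to 10.78 on control. Cd3e had a mean of 10.07 on HFD-ED and 10.12 on control. Its level in HFD-ED replicates 1 (10.41) and 2 (10.35) was above the highest control mouse (10.18). Replicate 3 (9.51) was below every control mouse, and replicate 4 (10.01) lay within the control range. Whatever their p, 15 of the 19 T-cell markers had a negative difference and 4 a positive one. B-cell markers were lower in 4 of 13, among them Blk (-0.58, adjusted p = 0.252) and Cd79b (-0.34, adjusted p = 0.304). Erythroid markers were higher in 16 of 30 (median 1.07) and neutrophil markers in 3 of 20 (median 0.60).

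Ccl5 followed the NK cell markers over the 12 mice with r = 0.88 (permutation p = 5e-05, adjusted over 12 relations 0.000600) and rho = 0.75 (permutation p = 0.00662, adjusted 0.0794). Without the 2 mice farthest from the median r was 0.80, and within diets it was 0.78. Against the erythroid mean Ccl5 had r = -0.73 (permutation p = 0.00409, adjusted 0.0245) and rho = -0.66 (permutation p = 0.0212, adjusted 0.114), with r = -0.52 without 2 mice and -0.62 within diets. Nkg7 had r = -0.72 with the erythroid mean (permutation p = 0.00873, adjusted 0.0300) and rho = -0.57 (permutation p = 0.0584, adjusted 0.161), which was -0.46 without 2 mice and -0.57 within diets, and r = 0.64 with the T-cell markers (permutation p = 0.0100, adjusted 0.0300; rho = 0.55, permutation p = 0.0671), which was 0.20 without 2 mice and so rests on those mice. Xcl1 had r = 0.58 with the NK cell markers (permutation p = 0.0512, adjusted 0.0769) and rho = 0.43 (permutation p = 0.168), and within diets r was -0.20. Ifng had r = 0.64 with them (permutation p = 0.0250, adjusted 0.0601) and rho = 0.50 (permutation p = 0.104), and within diets r was 0.12. Nkg7 had r = 0.61 with them (permutation p = 0.0365, adjusted 0.0731) and rho = 0.64 (permutation p = 0.0285, adjusted 0.114), with r = 0.29 without 2 mice. With the T-cell markers, r was 0.64 for Ccl5, 0.55 for Xcl1 and 0.53 for Ifng (adjusted permutation p = 0.0860, 0.0769 and 0.0886). Their rho values were 0.070, 0.21 and 0.098, and r without 2 mice was 0.29, 0.73 and -0.18. These relations were chosen after the values were seen. The part of cell numbers in the lower levels was not tested.

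**Figure D3:**
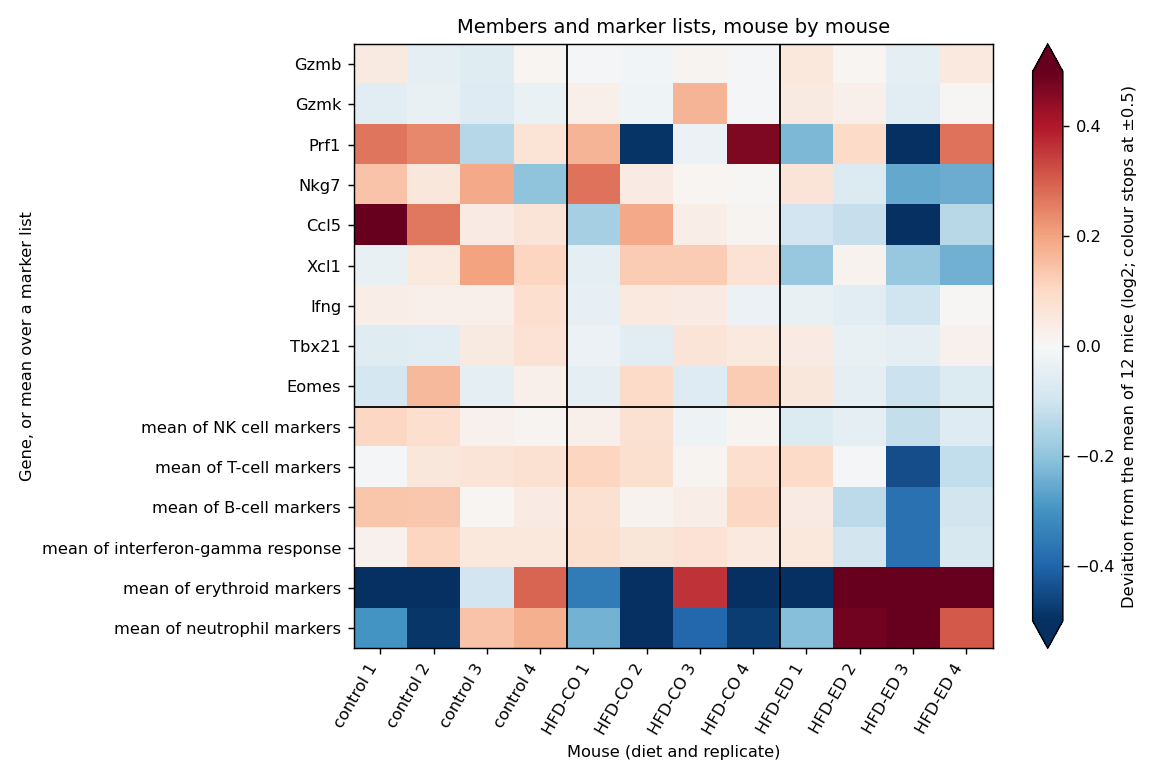
Deviation of each member, and of the mean of 6 lists, from the 12-mouse mean (log2, colour) in each mouse (columns, by diet and replicate); the colour stops at 0.5 either way. HFD-ED replicate 3 has the lowest Ccl5 (11.01) and Prf1 (10.69) and the highest erythroid mean (10.55). Xcl1 is low in HFD-ED replicates 1 (7.48), 3 (7.48) and 4 (7.43), whose erythroid means are 8.39, 10.55 and 9.81.

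Among themselves the members were weakly tied. Of 28 pairs of the 8 members above the olfactory level none passed an adjusted p of 0.05. Ccl5 and Ifng had the highest correlation, r = 0.74 (permutation p = 0.00540, adjusted 0.151) and rho = 0.79 (permutation p = 0.00341, adjusted 0.0955), with r = 0.66 without the 2 mice farthest from the median and 0.46 within diets. Xcl1 and Ifng followed with r = 0.60 (permutation p = 0.0400, adjusted 0.561) and rho = 0.64 (permutation p = 0.0280, adjusted 0.392), with r = 0.73 without 2 mice and 0.19 within diets. The mean deviation of the 8 members was -0.26 in HFD-ED replicate 3 and -0.023 to -0.049 in the other HFD-ED mice, against 0.023 to 0.095 in the control mice and -0.0079 to 0.087 in the HFD-CO mice. Of 5000 other genes with a mean of at least 8, those most like this deviation over the 12 mice were Anxa6 (r = 0.96), Pcsk7 (0.96), Kdm4b (0.95), Rtl8a (0.95), Arhgef1 (0.94), Cyp4f16 (0.94), Batf3 (0.93) and Tmem127 (0.93), and all points share the low HFD-ED replicate 3.

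Genes that work beside the members were taken from lists and counted by the same rule, under which 7.55% of all genes were lower and 5.69% higher on HFD-ED than on control. Of 26 other granule and death-ligand genes, 7 were lower and 0 higher than control at an unadjusted p under 0.05 on HFD-ED, and the median was -0.016. Ctsc, the protease that activates progranzymes, was 11.67 ± 0.13 on HFD-ED and 11.97 ± 0.042 on control (SD, n = 4), without overlap (-0.31, SE 0.056, adjusted p = 0.204). Ctsw, a cathepsin of cytotoxic cells, was lower without overlap too (-0.46, SE 0.12, adjusted p = 0.297), as was Tnf, the inflammatory cytokine that can trigger death (-0.11, SE 0.029, adjusted p = 0.297). Lta, lymphotoxin alpha, differed by -0.17 (adjusted p = 0.400). On HFD-CO the differences from control were -0.0058 for Ctsc, -0.11 for Ctsw, 0.056 for Lta and 0.047 for Tnf, all with overlap, and of the 26 listed genes 4 passed upward and 0 downward, against 2.12% and 2.88% of all genes. Against HFD-CO the HFD-ED mice were lower without overlap in Ctsc (-0.30, adjusted p = 0.330), Tnf (-0.16, adjusted p = 0.319) and Lta (-0.22, adjusted p = 0.381), and with overlap in Ctsw (-0.35, adjusted p = 0.468).

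Of 18 genes of granule exocytosis, 4 were lower in the HFD-ED mice than in control mice and 0 higher (median -0.071). They were Vav1, the exchange factor below the activating receptors (-0.32, adjusted p = 0.344, no overlap), Wipf1 (-0.35, adjusted p = 0.380) and Coro1a (-0.20, adjusted p = 0.398), regulators of actin, and Dock2 (-0.16, adjusted p = 0.406), which moves lymphocytes. On HFD-CO, Vav1 was below control without overlap too (-0.18, adjusted p = 0.99996), and Wipf1, Coro1a and Dock2 overlapped control. Between HFD-ED and HFD-CO, Vav1 overlapped (-0.14, adjusted p = 0.724). Of 22 transcription regulators of cytotoxic cells, 5 were lower and 0 higher (median -0.11). Irf1 (-0.29, adjusted p = 0.359) and Stat4 (-0.39, adjusted p = 0.369), which carry interferon and interleukin-12 signals, Id2, which NK cells need (-0.43, adjusted p = 0.429), and Cbfb, the partner of the Runx factors (-0.33, adjusted p = 0.419), were among them.

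Of 28 cytokine inputs and receptors, 3 were below control in the HFD-ED mice and 1 above. Tyk2, the kinase of the interleukin-12 and interferon receptors, was lower without overlap (-0.29, SE 0.055, adjusted p = 0.207), Il27ra differed by -0.41 (adjusted p = 0.356) and Il15, the survival cytokine of NK cells, by -0.14 (adjusted p = 0.398). Cish, which restrains interleukin-15 signals, was higher (0.28, adjusted p = 0.398). On HFD-CO, Tyk2 was below control too (-0.16, adjusted p = 0.99996), with overlap, and Il27ra (-0.042), Il15 (0.039) and Cish (0.095) differed less than on HFD-ED. Of 16 receptors of the secreted members and sister chemokines, Ccl4, a relative of Ccl5, was the 1 below the threshold (-0.41, SE 0.17, adjusted p = 0.465, no overlap), at 8.11 ± 0.11 on HFD-ED and 8.51 ± 0.36 on control (SD, n = 4). Cxcr6, a receptor of resident lymphocytes, was lower without overlap at -0.10 (adjusted p = 0.531).

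Of 38 genes that interferon-gamma induces, 11 were lower in HFD-ED mice than in control mice at an unadjusted p under 0.05 and 0 higher, against 7.55% and 5.69% of all genes, with a median of -0.18. Irgm2 (-0.32, SE 0.064, adjusted p = 0.207), an immunity-related GTPase, and Cd274, which encodes PD-L1 (-0.50, SE 0.12, adjusted p = 0.268), did not overlap between the diets, and Igtp (-0.44, adjusted p = 0.344) and H2-D1 (-0.37, adjusted p = 0.344), a class I histocompatibility chain, overlapped. Against HFD-CO, 12 of the 38 were lower and 0 higher. On HFD-CO 0 of the 38 passed against control in either direction (median 0.0015). The mean of the list was 9.49 in HFD-ED replicate 3 and 9.91 in HFD-ED replicate 1, the latter within the control range of 9.88 to 9.97, whereas Ccl5 and Xcl1 were below the control range in that mouse. None of these genes passed the adjusted threshold. With arrays centred on the NK cell markers, which adds the same 0.13 to every gene, the list median was -0.048. Centred on the T-cell markers, which adds 0.17, it was -0.014.

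**Figure D4:**
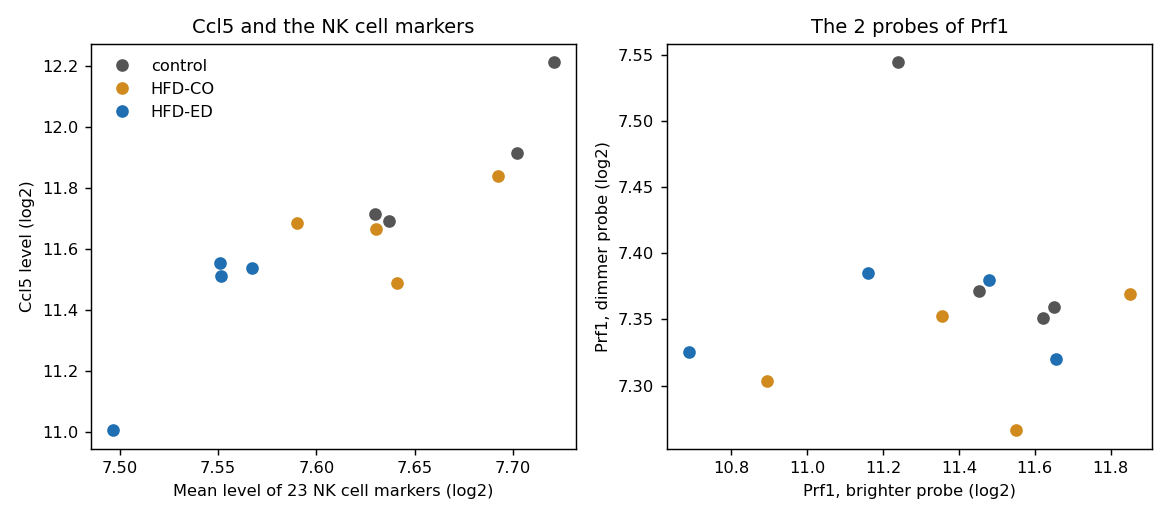
Left, level of Ccl5 against the mean of 23 NK cell markers in each mouse (both log2), coloured by diet; right, the brighter against the dimmer probe of Prf1 (both log2). Ccl5 and the NK cell markers have r = 0.88 over 12 mice, and the Prf1 probes r = -0.0082.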

How the data were processed

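Spleen RNA of 12 mice (4 per diet, 1 array each) was measured on Illumina BeadChips. The authors extracted intensities with GenomeStudio, applied the variance-stabilizing transformation and quantile normalization of lumi (2.18.0 in the submitters' processing notes), and deposited log2 values, which were used without a filter. The transformation compresses dim probes, which shrinks their differences on this scale. Whether a given measured difference of a dim probe is too small or too large was not tested. The number of arrays limits the precision. Probe names came from the platform annotation: 34885 probes have 1 symbol, 18 several and 10378 none.

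The 3 diets were fitted together in limma 3.58.1 (R 4.3.3; lmFit and eBayes, two-sided), with Benjamini-Hochberg adjustment over all 45281 probes of a comparison and a threshold of 0.05. Fold is 2 to the power of the difference. Backgrounds were counted over 19057 genes by 1 probe each. Permutation tests used SciPy 1.17.1, exact for 4 against 4 mice and with 100000 resamples for correlations. The fit was tested on simulated data.

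The members and lists were chosen with earlier results of these data known. Genes named were the members, up to 4 genes per list with the smallest p for HFD-ED against control, the 8 genes most like the members, and the lowest, highest or defining markers of other cells. The genes most like the Prf1 probe and the relations to marker lists were added after the values were seen. Each replicate is a separate mouse. Alternatives were a block for the replicate number, a variance trend, array weights, fits of 2 diets, a filter on dim probes, 1 probe per symbol, other normalizations and scalings, an erythroid covariate, other adjustments, other probes and leaving out each mouse.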

Additional observations from a re-analysis of the deposited data

Results flagged for a closer look

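Within each diet the 4 values of each of the 9 members were screened for a mouse far from the other 3, in 27 groups, of which chance flags about 1 in 20. Ccl5 in HFD-ED replicate 3 was 11.01, the lowest, with the other 3 mice at 11.51 to 11.56. This mouse also had the highest erythroid and neutrophil means, and without it the difference of HFD-ED from control was -0.35. Nkg7 in HFD-CO replicate 1 was 9.97, the highest, with the others at 9.71 to 9.74. This mouse also carried pancreatic transcripts (Cela2a at 11.42), and without it the difference of Nkg7 between HFD-CO and control was -0.029 in place of 0.035. The part of these transcripts was not tested.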

How the results depend on the processing

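Over all the alternatives run, Ccl5 and Xcl1 kept a negative difference of HFD-ED from control, from -0.54 to -0.28 and from -0.29 to -0.065. Ifng turned positive when arrays were centred on the T-cell (0.078) or NK cell (0.043) markers, scalings that add 0.166 and 0.131 to every probe, so that any median above -0.166 or -0.131 turns positive by construction. Ccl5 reached an adjusted p of 0.0206 with arrays centred on the NK cell markers, among 35053 probes called, and lay between 0.154 and 0.939 otherwise in limma.

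For HFD-ED against control, 0 probes were called, but 8 with a variance trend, 3 with 1 probe per symbol, 1178 centred on T-cell markers, 35053 on NK cell markers, and 0 to 87 leaving out a mouse (87 without HFD-ED replicate 1). Members lower were 3 of 9, but 4 with the replicate block, 2 with the erythroid covariate or without dim probes, 1 centred on T-cell or NK cell markers, and 3 to 4 leaving out a mouse (4 without HFD-ED replicate 1 or control replicate 4, Nkg7 added), and members higher were 1 in a fit of the 2 diets, 2 centred on NK cell markers, and 0 to 1 leaving out a mouse (Gzmk, without HFD-CO replicate 3). For HFD-CO against control, centring on T-cell markers called 84 probes and 1 member lower, and 0 members were higher with the replicate block, in a fit of the 2 diets, without dim probes or centred on T-cell markers, and 0 to 1 leaving out a mouse. For HFD-ED against HFD-CO, the 1 probe called became 0 with the replicate block, without dim probes, in a fit of the 2 diets, with cyclic loess, the erythroid covariate or adjustment over the comparisons together, 7 with a variance trend, 1322 centred on T-cell and 17742 on NK cell markers, and 0 to 46 leaving out a mouse (46 without HFD-ED replicate 1). Members lower were then 2 with the replicate block, a variance trend, array weights or a fit of the 2 diets, 0 centred on either marker list, and 1 to 2 leaving out a mouse, and 1 member was higher centred on NK cell markers. The filter on dim probes left out Ifng, Gzmk, Gzmb and Tbx21, which had no diet mean of at least 7.5. Under that filter these members could not be counted as lower or higher. The causes of the other changes were not tested.

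Mice that carry the same replicate number on different diets were not paired, because the labels do not say that a number is shared. Of the 12 such pairs, 4 had r above 0.1, the highest 0.37 (HFD-CO and HFD-ED replicates 3). Among pairs of different number the highest was 0.42 (HFD-ED replicate 1 and control replicate 2). With the replicate block, the adjusted p for HFD-ED against control was 0.270 for Ccl5, 0.234 for Xcl1 and 0.345 for Ifng, with the same differences, and Nkg7 passed the unadjusted threshold (-0.17, adjusted p = 0.398), as it did against HFD-CO (-0.21, adjusted p = 0.382).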

Other observations

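The brighter Prf1 probe was set against all genes with a mean of at least 8, a step chosen after the values were seen. The genes most like it over the 12 mice were Rhbdl2 (r = 0.95), Icosl (0.91), Erich5 (0.91) and Zxda (0.91), of 5002 candidates. With the mean of the NK cell markers this probe had r = 0.38 (permutation p = 0.226, adjusted over 4 relations 0.453) and rho = 0.34 (permutation p = 0.275), and with the T-cell markers r = 0.48 (permutation p = 0.116) and rho = -0.028 (permutation p = 0.939), the former turning to -0.26 without the 2 mice farthest from the median. The dimmer probe had r = 0.019 with the NK cell markers (permutation p = 0.958; rho = -0.20, permutation p = 0.542). Neither probe sequence was used here.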
